A study of Mus musculus with 899 samples.

Results

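The miRNA described here is miR-335, measured as its mature products mmu-miR-335-5p and mmu-miR-335-3p in mouse plasma. Both were taken by name from a table of read counts, so they are 2 of the 1915 mature miRNA listed, and both were among the 483 that passed the filter on low counts and were tested. Plasma came from retro-orbital bleeds of live mice, or from the heart in terminal bleeds, of 196 mice of both sexes and of the strains C3Hf/Sed/Kam (C3H) and C57Bl/6. Of the C3H mice, 64 received a single exposure of whole thorax lung irradiation (WTLI) and 32 were sham irradiated. Of the C57Bl/6 mice, 68 were irradiated and 32 were sham irradiated. Samples were taken before treatment (PT), at day 2 (D2) or day 5 (D5), and then at month 1 (M1) and monthly to M4 in C3H or to M6 in C57Bl/6 mice. The mouse was the replicate, and the same mice returned at several times. Each strain came in a first and a second cohort, and only first-cohort mice were sampled after M1. Irradiated groups shrank with time, to 17 C3H mice at M4 and 8 C57Bl/6 mice at M6, and 4 irradiated C57Bl/6 mice had no PT sample.

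A miRNA is cut from a hairpin precursor, whose arms each give a mature strand of about the same length. The strand loaded into an Argonaute protein pairs with messenger RNA mainly through its seed near the 5′ end and lowers the output of those messengers. The host gene of miR-335, Mest (mesoderm-specific transcript), is an imprinted gene expressed from the paternal allele and active in mesodermal tissues and in expanding adipose tissue, and miR-335 lies in one of its introns. In plasma, a miRNA can come from any tissue or blood cell and is carried in vesicles or protein complexes.

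The mature sequences are shown because the seed, bases 2 to 8 and set in capitals, is what separates the strands as regulators. In the hairpin, the capitals mark both mature arms. All sequences are from RefSeq on GRCm38.p6.
mmu-miR-335-5p: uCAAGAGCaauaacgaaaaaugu
mmu-miR-335-3p: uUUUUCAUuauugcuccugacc
Mir335 hairpin: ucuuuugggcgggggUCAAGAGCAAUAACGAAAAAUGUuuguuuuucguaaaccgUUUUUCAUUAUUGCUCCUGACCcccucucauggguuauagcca
The 5p strand has 23 bases and lies at chr6:30741314-30741336 on the plus strand. The 3p strand has 22 bases and lies at chr6:30741354-30741375 on the same strand. Of the 1679 mature mouse miRNA in the RefSeq table, 0 others shared either seed. The hairpin (Mir335, chr6:30741299-30741396) lies inside Mest (chr6:30723547-30748465, plus strand). Of 11 annotated Mest transcripts in that build, the hairpin was intronic in 7, exonic in 0 and outside the remaining 4. The intron that holds it spans 1316 bases.

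Both strands of miR-335 were detected in plasma, and the 5p strand was the more abundant. mmu-miR-335-5p had 164999 reads over all 899 libraries, with a median of 132 reads in a library (range 0 to 1858) and 0 reads in 1 library. mmu-miR-335-3p had 21581 reads, a median of 18 (range 0 to 199) and 0 reads in 24 libraries. Levels are given below as log2 CPM, the usual CPM unit (reads relative to library size) after TMM scaling, on a log2 scale with a prior count of 2. The median level was 6.48 log2 CPM for the 5p strand and 3.73 for the 3p strand, which ranked 124 and 220 by mean level among the 483 miRNA tested. Over all libraries the 5p strand supplied 88.4% of the reads of both arms, from 79.7% in C3H plasma at PT to 92.6% in C57Bl/6 plasma at M3. The 3p strand outnumbered the 5p strand in 19 libraries. At least 20 reads were present for the 5p strand in 882 libraries and for the 3p strand in 410, so differences in the 3p strand carried more counting error. Library totals ranged from 206490 to 11814515 reads, with a median of 1475030. Plasma pools RNA from many sources, so fewer cells of a type and less RNA per cell cannot be told apart.

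Before irradiation, the 5p strand did not pass the test between strains, while the 3p strand was lower in C57Bl/6 mice. Levels of mmu-miR-335-5p at PT spanned 3.36 to 7.68 log2 CPM in the 96 C3H mice (median 6.28) and 0.23 to 7.51 in the 96 C57Bl/6 mice (median 6.17). The ranges overlapped almost whole. C57Bl/6 minus C3H was −0.18 on the log2 scale (SE 0.11, adjusted p = 0.184 from the quasi-likelihood fit of edgeR, with p-values corrected over 483 miRNA by Benjamini and Hochberg). The 3p strand had medians of 4.23 log2 CPM in C3H and 3.89 in C57Bl/6 mice and a fitted difference of −0.83 (SE 0.16, edgeR adjusted p = 6.87e-07). Of all miRNA tested, 50.7% passed in this contrast. The 3p difference was −1.15 (SE 0.21) between the first cohorts but −0.025 (SE 0.20) between the second cohorts. In sham irradiated mice over D2 to M4, both strands were lower in C57Bl/6 mice, by −0.83 (SE 0.10, edgeR adjusted p = 3.65e-14) for the 5p strand and −0.48 (SE 0.14, edgeR adjusted p = 0.00186) for the 3p strand, where 53.6% of all miRNA passed. In the first cohorts alone these differences were −0.88 (SE 0.12) and −0.42 (SE 0.16).

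The cohorts of a strain differed at PT in both strands, in opposite directions. In C3H mice the median 5p level was 5.84 log2 CPM in the first cohort and 6.62 in the second (48 mice each), and the median 3p level was 5.44 and 3.39. The C57Bl/6 cohorts had 5p medians of 5.62 and 6.49 and 3p medians of 4.06 and 3.73. Second minus first cohort was 0.70 (SE 0.15) for the 5p strand in each strain, with edgeR adjusted p of 2.02e-05 in C3H and 4.94e-05 in C57Bl/6 mice. For the 3p strand it was −1.81 (SE 0.21, edgeR adjusted p = 3.28e-16) in C3H and −0.53 (SE 0.21, edgeR adjusted p = 0.0412) in C57Bl/6 mice. Such differences were common, with 54.9% of all miRNA passing in C3H and 31.5% in C57Bl/6 mice. What set the cohorts apart was not tested. Since only the first cohort was followed after M1, levels at late times were also compared with PT within that cohort.

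**Figure D1:**
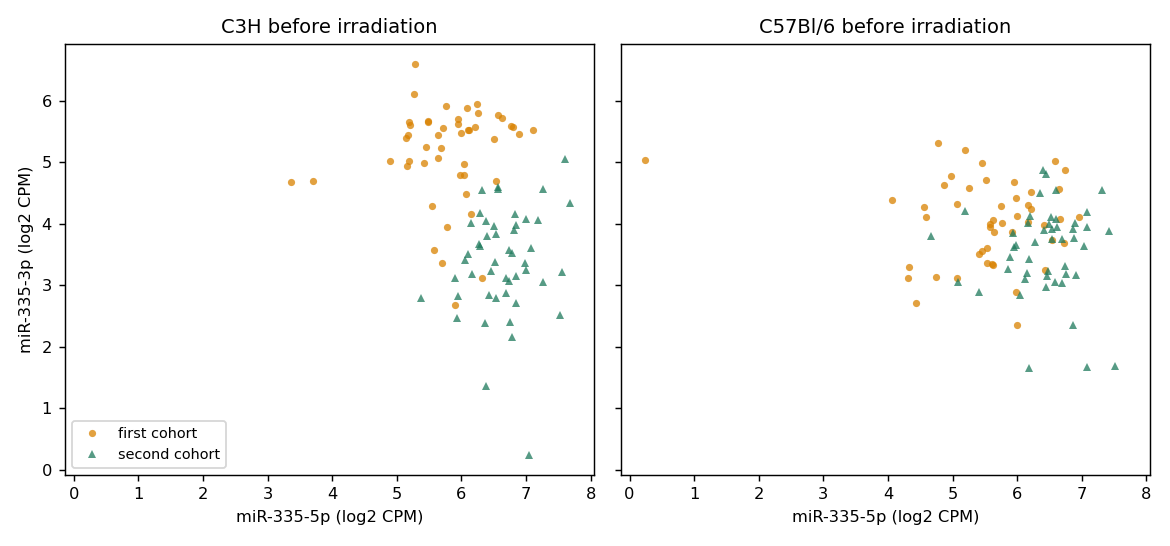
Level of mmu-miR-335-3p against that of mmu-miR-335-5p in each mouse before irradiation (both axes log2 CPM), with C3H on the left, C57Bl/6 on the right, circles for the first and triangles for the second cohort. In C3H mice the first cohort sits at a median 3p level of 5.44 and the second at 3.39, and within a cohort the points show no slope.

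The relation between the strands was computed over all mice of a strain and within its cohorts. Over the 96 C3H mice at PT, Pearson's r between the 5p and 3p levels was −0.37 (permutation p = 0.0003, adjusted p = 0.0006 over 2 strains) and Spearman's rho was −0.38 (permutation p = 0.0002). Without the 2 mice farthest from the median of the 5p strand, r was −0.40. Within the cohorts of 48 mice, r was 0.09 (permutation p = 0.520) and 0.14 (permutation p = 0.342), so the relation did not hold within cohorts. In C57Bl/6 mice r was −0.21 (permutation p = 0.0440) and rho −0.10 (permutation p = 0.312). There it was −0.11 without the 2 farthest mice and −0.09 and −0.04 within cohorts.

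mmu-miR-335-5p was higher in females than in males at PT in C57Bl/6 mice in edgeR, but the call was lost in 3 of 9 alternatives. The median was 6.54 log2 CPM in the 32 females later irradiated and 5.87 in the 32 males, and 6.45 against 6.08 in the 16 females and 16 males of the sham arm. Female minus male was 0.56 (SE 0.16, edgeR adjusted p = 0.0062 over 543 miRNA), where 12.2% of all miRNA passed. The difference was 0.30 (SE 0.21, edgeR adjusted p = 0.563) in the first cohort and 0.79 (SE 0.20, edgeR adjusted p = 0.00152) in the second, and it did not pass with library totals alone (0.43) or in limma-voom (0.49). The other 3 contrasts of sex, mmu-miR-335-3p in both strains and the 5p strand in C3H mice, were between −0.07 and 0.23 and did not pass, with 13.3% of all miRNA passing in C3H mice. The 3p difference in C3H mice, 0.23 in edgeR, passed in 3 of 9 alternatives, at 0.57 in limma-voom with and without the mouse as a block and at 1.00 (SE 0.27, edgeR adjusted p = 0.00278) in the second cohort.

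In sham irradiated mice the level of miR-335 changed over time, so each irradiated group is read against sham mice of the same time. In C3H sham mice the median of mmu-miR-335-5p was 6.30 log2 CPM at PT (n = 32), 6.90 at D2 (n = 16), 6.87 at D5 (n = 16), 7.24 at M1 (n = 32), 6.26 at M2, 6.74 at M3 and 6.01 at M4 (n = 16 each). Both cohorts enter these medians up to M1 and the first cohort alone after it. Within the first cohort the 5p strand differed from PT by 0.77 (SE 0.30) at D2, 1.15 (SE 0.30) at D5, 0.95 (SE 0.25) at M1, 0.18 (SE 0.25) at M2, 0.67 (SE 0.25) at M3 and 0.17 (SE 0.25) at M4. In C57Bl/6 sham mice it was 6.38 at PT (n = 32), 6.03 at D2, 6.28 at D5, 6.58 at M1 (n = 32), 5.88 at M2 and 5.78 at M3, and then 5.09, 5.16 and 5.17 at M4, M5 and M6 (n = 16 where no other number is given). An F test over all later times against PT passed for the 5p strand in both strains (edgeR adjusted p = 5.43e-08 in C3H and 5.94e-08 in C57Bl/6 mice). It also passed for the 3p strand (edgeR adjusted p = 0.000297 and 2.00e-06), and 46% and 62.9% of all miRNA passed in C3H and C57Bl/6 mice. Within the first cohort, C57Bl/6 sham mice differed from their PT level in the 5p strand by −0.25 (SE 0.25) at M3, −0.86 (SE 0.25) at M4, −0.75 (SE 0.25) at M5 and −0.67 (SE 0.25) at M6.

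In C57Bl/6 mice the level of mmu-miR-335-5p after WTLI was higher than in sham mice from M3 to M5, by more than 2-fold. The comparison asked which circulating miRNA follow thoracic irradiation during the months in which late lung injury develops. At M3, the 31 irradiated mice ranged from 5.57 to 7.75 log2 CPM (median 6.84) and the 16 sham mice from 4.63 to 6.99 (median 5.78). At M4, 29 irradiated mice ranged from 5.42 to 7.44 (median 6.28) and 16 sham mice from 3.30 to 6.80 (median 5.09). At M5, 21 irradiated mice ranged from 5.32 to 7.44 (median 6.56) and 16 sham mice from 4.15 to 6.90 (median 5.16). The groups overlapped, but their centres were apart: 30 of 31, 29 of 29 and 21 of 21 irradiated mice lay above the sham median at M3, M4 and M5, and 6, 10 and 10 of the 16 sham mice lay below the lowest irradiated mouse. In reads, the medians were 190 against 111.5 at M3, 120 against 43.5 at M4 and 132 against 47.5 at M5.

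The log2 fold change of mmu-miR-335-5p was 1.10 (SE 0.24, 2.14-fold, edgeR adjusted p = 0.000769) at M3, where 1.66% of all miRNA passed and it ranked 3 by p-value. It was 1.15 (SE 0.24, 2.22-fold, edgeR adjusted p = 0.000282) at M4, where 4.76% passed and it ranked 5. It was 1.26 (SE 0.26, 2.39-fold, edgeR adjusted p = 0.000107) at M5, where 3.52% passed and it ranked 5. At M6, 8 irradiated mice ranged from 5.09 to 7.28 log2 CPM (median 6.66) and 16 sham mice from 4.09 to 6.81 (median 5.17), and 6 of 8 lay above the sham median. The M6 change of 1.07 (SE 0.31, 2.10-fold) did not pass with edgeR adjusted p = 0.0769, where 0.414% of all miRNA passed. It passed in 11 of 19 other ways of processing. At M3 the change was 1.46 in females alone and 0.83 in males alone, of which the second did not pass (edgeR adjusted p = 0.336).

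**Figure D2:**
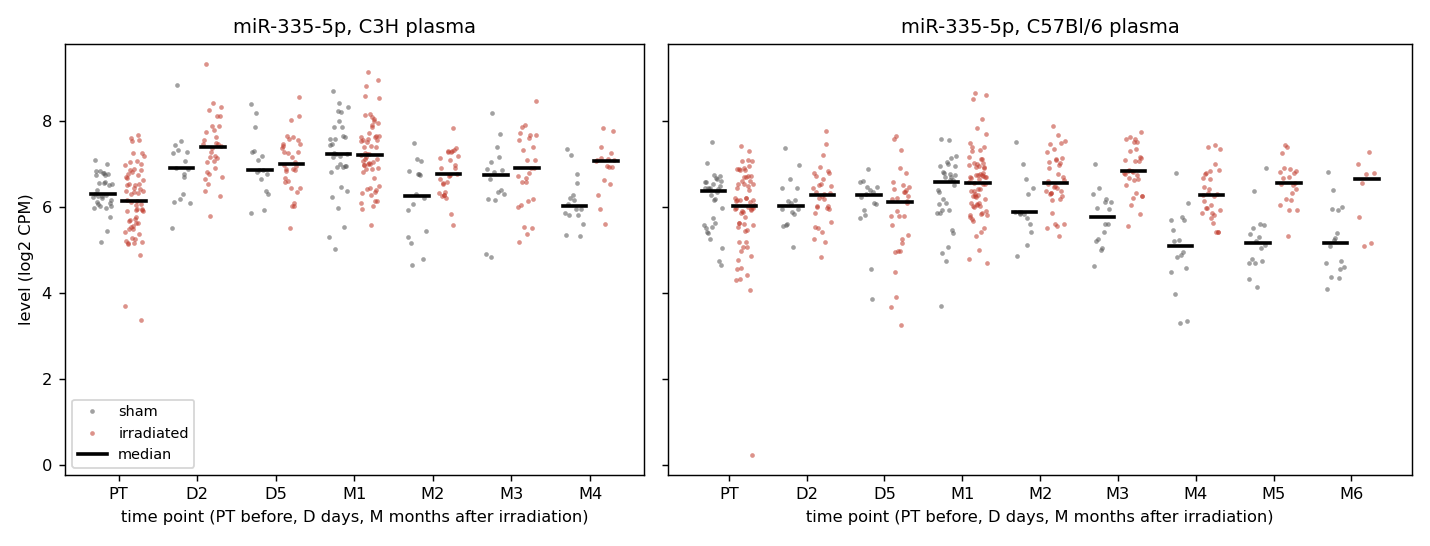
Level of mmu-miR-335-5p (log2 CPM) in every plasma library by time point, sham mice in grey and irradiated mice in red, with black bars at the medians, for C3H (left) and C57Bl/6 mice (right). From M3 to M5 the C57Bl/6 sham medians are 5.78, 5.09 and 5.16 and the irradiated medians 6.84, 6.28 and 6.56.

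Earlier, the strand did not pass in C57Bl/6 mice in edgeR. At PT, when no mouse had been irradiated, the groups differed by −0.09 (SE 0.16) over both cohorts and 0% of all miRNA passed. The change was 0.18 (SE 0.23) at D2 and −0.01 (SE 0.23) at D5, the times with the largest shares of miRNA that passed, 6.63% and 14.1%. It was 0.29 (SE 0.16, edgeR adjusted p = 0.384) at M1, where 3.73% passed, and 0.62 (SE 0.23, edgeR adjusted p = 0.117) at M2, where 3.31% passed. As a change from each mouse's own PT level with the mouse as a fixed block, the M2 change was 0.97 and passed in limma-voom (adjusted p = 0.0383). Mice sampled at M2 were all of the first cohort. Its mean PT level was lower in irradiated (5.33 log2 CPM) than in sham mice (5.88), and that difference enters this value.

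**Figure D3:**
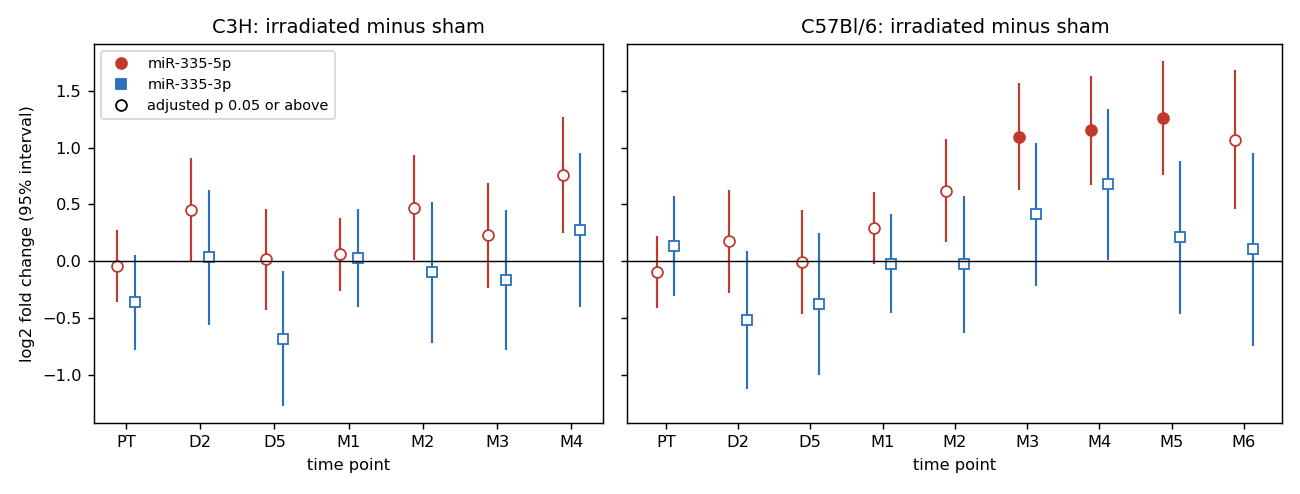
Irradiated minus sham as a log2 fold change with its 95% interval at each time point, for mmu-miR-335-5p and mmu-miR-335-3p in C3H (left) and C57Bl/6 mice (right), with filled symbols where the adjusted p was under 0.05. The filled symbols are those of the 5p strand in C57Bl/6 mice at 1.10, 1.15 and 1.26 (M3, M4 and M5).

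Against each mouse's own PT level, the gap at late times held a higher level in irradiated mice together with a lower one in sham mice. The first cohort, which holds all mice after M1, was not balanced at PT. There the mean 5p level was 5.33 log2 CPM in 32 irradiated C57Bl/6 mice (median 5.60). In the 16 sham mice it was 5.88 (median 5.69). Changes from PT include this difference, which was present before treatment. Of the irradiated C57Bl/6 mice with a PT sample, 31 of 32 were above their own PT level of mmu-miR-335-5p at M2 (median change 1.19), 25 of 27 at M3 (1.71), 19 of 25 at M4 (0.73), 16 of 18 at M5 (0.88) and 7 of 8 at M6 (1.81). Of the 16 sham mice, 6 were above at M3 (median change −0.46), 3 at M4 (−0.64), 2 at M5 (−0.74) and 4 at M6 (−0.46). Of these, 1 irradiated mouse had 0 reads of the 5p strand at PT in a library of 1169781 reads, and it gave the changes of 5.67, 6.39, 5.62, 6.56, 6.60 and 4.86 that stand apart from M1 to M6. In the fit of the first cohort alone, irradiated C57Bl/6 mice differed from PT by 0.61 (SE 0.17) at M1, 1.05 (SE 0.17) at M2, 1.27 (SE 0.18) at M3, 0.76 (SE 0.18) at M4, 1.00 (SE 0.20) at M5 and 0.87 (SE 0.26) at M6.

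**Figure D4:**
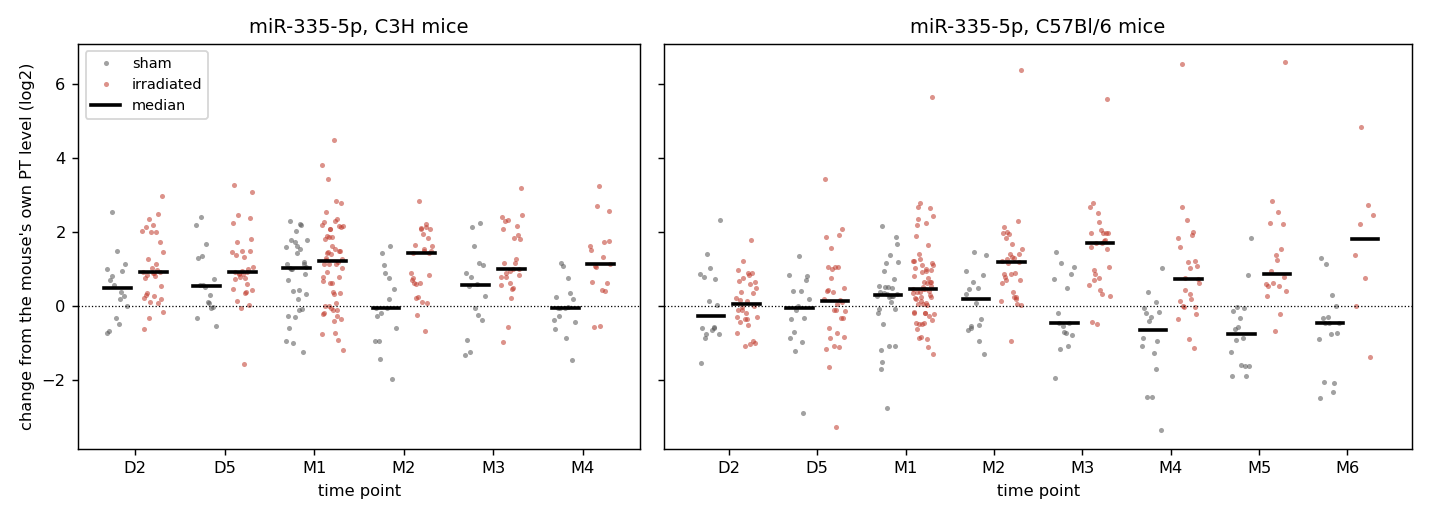
Change of mmu-miR-335-5p from the mouse's own PT level (log2 difference), sham in grey and irradiated in red, with black bars at the medians and a dotted line at no change. At M4 and M5 the C57Bl/6 sham medians are −0.64 and −0.74 and the irradiated medians 0.73 and 0.88.

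In C3H mice mmu-miR-335-5p did not pass between irradiated and sham mice at any of the 6 times after WTLI in edgeR, DESeq2 or limma-voom, and 3 were at an unadjusted p under 0.05 in edgeR. The largest change was at M4, where 17 irradiated mice ranged from 5.61 to 7.85 log2 CPM (median 7.07) and 16 sham mice from 5.32 to 7.35 (median 6.01). There 15 of 17 irradiated mice lay above the sham median, and the change was 0.76 (SE 0.26, edgeR adjusted p = 0.191, rank 7) with 0.414% of all miRNA passing. The change was 0.45 (SE 0.23, edgeR adjusted p = 0.308) at D2, where 4.97% passed, and 0.47 (SE 0.24, edgeR adjusted p = 0.542) at M2, where 0.621% passed. At D5, M1 and M3 it was 0.02, 0.06 and 0.23 (SE 0.23, 0.16 and 0.23), and 3.11%, 3.31% and 2.07% of all miRNA passed. At PT the groups differed by −0.04 (SE 0.16) over both cohorts, with 0% passing. In the first cohort alone, the mean PT level was 5.59 log2 CPM in irradiated mice (median 5.63) and 6.16 in sham mice (median 6.10). Changes from PT after M1 include this difference, which was present before treatment. Against their own PT level, 26 of 28 irradiated C3H mice were higher at M2 (median change 1.43), 25 of 27 at M3 (1.01) and 15 of 17 at M4 (1.14), beside 7, 10 and 6 of 16 sham mice (medians −0.04, 0.57 and −0.04).

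The effect of WTLI on mmu-miR-335-5p was not shown to differ between strains. An F test of the strain difference over the 6 shared times gave edgeR adjusted p = 0.569, with 4.35% of all miRNA passing. At M3 the difference of the effects (C57Bl/6 minus C3H) was 0.87 (95% interval 0.22 to 1.51, edgeR adjusted p = 0.405), and at M4 it was 0.39 (−0.29 to 1.07). A sex difference of the effect was tested over D2, D5 and M1 only, so the test does not cover M3 to M5, where the strand passed in C57Bl/6 mice. The F test gave edgeR adjusted p = 1.00 in C3H and 0.852 in C57Bl/6 mice, where 0.737% and 5.16% of all miRNA passed. For mmu-miR-335-3p the same tests gave 0.937 for strain, and 1.00 and 0.941 for sex in C3H and C57Bl/6 mice (edgeR, adjusted p).

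mmu-miR-335-3p did not pass between irradiated and sham mice at any of the 14 combinations of strain and time after WTLI in edgeR. At an unadjusted p under 0.05 there were 2, and DESeq2 and limma-voom also called 0. At the times when the 5p strand passed in C57Bl/6 mice, the 3p medians were 3.31 log2 CPM in irradiated and 2.69 in sham mice at M3, 3.32 and 2.51 at M4, and 3.27 and 2.99 at M5. The changes were 0.41 (SE 0.32), 0.68 (SE 0.34) and 0.21 (SE 0.34), with edgeR adjusted p of 0.730, 0.253 and 0.856. The 95% intervals reached 1.04, 1.34 and 0.89, and the interval at M4 held the 1.15 fitted for the 5p strand. The most negative change was −0.68 (SE 0.30, edgeR adjusted p = 0.320) in C3H mice at D5.

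At M2 to M4 in C3H and at M2 to M5 in C57Bl/6 mice, the 3p strand was below its PT level in most sham and most irradiated mice. In first-cohort C3H sham mice, 0 of 16 were above their own PT level at M2, M3 and M4, with median changes of −1.78, −1.79 and −2.02. In irradiated C3H mice, 1 of 28, 2 of 27 and 4 of 17 were above, with medians of −1.57, −1.45 and −1.35. In C57Bl/6 sham mice 2 of 16 were above at M3 and 2 of 16 at M4 (medians −1.17 and −1.83), and in irradiated ones 9 of 27 and 6 of 25 (−0.89 and −0.79). At M2 it was 4 of 16 sham mice (−0.60) and 9 of 32 irradiated mice (−0.65). At M5 it was 3 of 16 sham mice (−1.38) and 4 of 18 irradiated mice (−0.78). At M6 it was 2 of 16 sham mice (−1.33) but 4 of 8 irradiated mice (0.017). The fitted first-cohort differences from PT at M4 were −1.92 (SE 0.34) and −1.35 (SE 0.30) in C3H sham and irradiated mice, and −1.66 (SE 0.36) and −0.92 (SE 0.25) in C57Bl/6 sham and irradiated mice. In the same fit the 5p strand of irradiated mice at M4 was above PT, by 1.35 (SE 0.21) in C3H and 0.76 (SE 0.18) in C57Bl/6 mice, so the strands stood on opposite sides of their PT levels. The first cohort had lower 5p and higher 3p levels at PT than the second. In C3H sham mice the 5p strand was above PT at D2 and D5 (0.77 and 1.15). The 3p strand was below it (−0.94 and −0.69, SE 0.42 each) but did not pass. At M1 and M3 both strands passed in C3H sham mice, the 5p strand at 0.95 and 0.67 and the 3p strand at −1.37 and −1.62. At M2 and M4 their 5p strand was at 0.18 and 0.17 and did not pass. C57Bl/6 sham mice did not have the 5p strand above and the 3p strand below PT at D2 or D5 (5p −0.19 and 0.11, 3p 0.31 and 0.28). What set the PT levels was not tested.

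**Figure D5:**
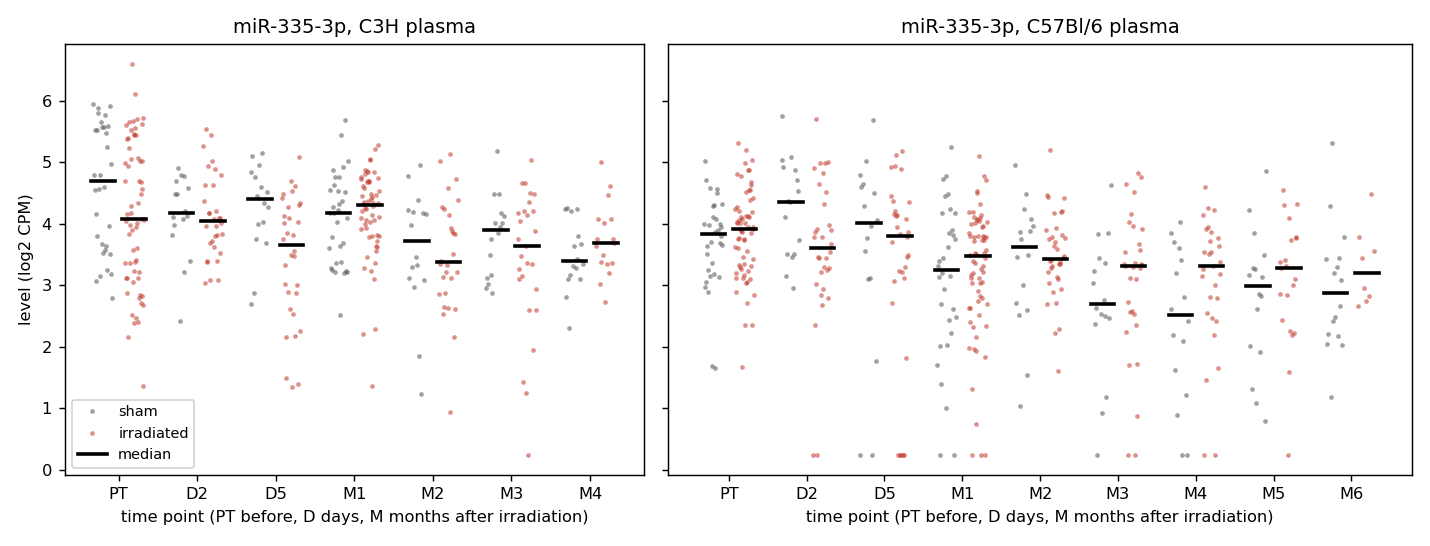
Level of mmu-miR-335-3p (log2 CPM) in every plasma library by time point, sham mice in grey and irradiated mice in red, with black bars at the medians. C3H sham medians go from 4.69 at PT to 3.38 at M4 and C57Bl/6 sham medians from 3.83 to 2.51.

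The ratio of the arms, which needs no scaling between libraries, was compared as log2 of 5p over 3p reads with 0.5 added to each. At M5 the mean in irradiated C57Bl/6 mice was 3.68 ± 1.26 (SD, n = 21) and that of the sham group 2.67 ± 1.34 (SD, n = 16), a difference of 1.02 (permutation p = 0.0234, adjusted p = 0.171 over 17 contrasts, two-sided). In C3H mice at D5 it was 3.72 ± 1.15 (SD, n = 32) against 2.81 ± 0.89 (SD, n = 16), a difference of 0.92 (permutation p = 0.00774, adjusted p = 0.132). Of the 17 contrasts 0 passed after adjustment, and the unadjusted p was under 0.05 in 4, the others being C3H at M4 (0.51, permutation p = 0.0328) and C57Bl/6 at D2 (0.83, permutation p = 0.0402). The change of the 5p strand was therefore not shown to differ from that of the 3p strand at M3, M4 or M5 in C57Bl/6 mice.

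Irradiated first-cohort mice that were sampled at the last time of their strain were compared with those that were not. The labels give no survival times, and a missing sample can have other reasons than death. Of 28 permutation tests, 0 passed after adjustment, and 0 were below 0.05 before it. The smallest p was for mmu-miR-335-5p in C57Bl/6 mice at M5, where 8 mice sampled at M6 had a median of 6.38 log2 CPM and 13 others 6.70 (difference of means −0.43, exact permutation p = 0.0618, adjusted p = 0.716). Between PT and M1, over 32 sham mice of a strain, the 5p level of a mouse had r of −0.01 in C3H (permutation p = 0.947) and 0.06 in C57Bl/6 mice (permutation p = 0.749). For the 3p strand in C57Bl/6 mice r was 0.41 (permutation p = 0.0214, adjusted p = 0.0856 over 4 tests) and rho 0.44 (adjusted permutation p = 0.0465), with r of 0.31 without the 2 farthest mice and of 0.18 and 0.21 within cohorts. In C3H mice it was 0.09 (permutation p = 0.629).

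The miRNA most like mmu-miR-335-5p over the 899 libraries, once each group's mean had been subtracted, were miR-23a-3p (r = 0.471), the muscle miRNA miR-1a-3p (0.470) and miR-133a-3p (0.460), miR-300-3p (0.464) of the imprinted Dlk1-Dio3 region, and miR-34a-5p (0.450), a target of p53. mmu-miR-335-3p had r = 0.0094 by this measure. The points share library depth and scaling, so these values are descriptive. Over the 32 group means the order was miR-216b-5p (r = 0.722), miR-216a-5p (0.671), miR-582-3p (0.651), miR-217-5p (0.620) and miR-93-5p (0.588), with mmu-miR-335-3p at 0.573. The cluster of miR-216a, miR-216b and miR-217 is abundant in the exocrine pancreas. Their mean levels in these libraries were low, at 3.69 log2 CPM for miR-216a-5p, 0.63 for miR-216b-5p and 1.58 for miR-217-5p. A library with 0 reads sits at 0.23 on this scale, so values of miR-216b-5p in particular rest on few reads.

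The group means behind the second ranking include the C57Bl/6 groups of M3 to M5, so the values of those miRNA in these contrasts describe the choice and are no separate support. In C57Bl/6 mice at M3, M4 and M5, miR-216a-5p changed by 2.43, 2.30 and 1.53 (edgeR adjusted p = 4.81e-08, 6.55e-07 and 0.00284). miR-216b-5p changed by 3.42 and 4.19 at M4 and M5 (edgeR adjusted p = 0.00315 and 0.000178) and was at 2.25 at M3 without passing (edgeR adjusted p = 0.112). miR-217-5p changed by 2.51 and 1.80 at M3 and M4 (edgeR adjusted p = 0.00156 and 0.0324) and was at 1.16 at M5 (edgeR adjusted p = 0.277). miR-34a-5p changed by 0.99 and 0.73 at M4 and M5 (edgeR adjusted p = 0.000295 and 0.0335) and was at 0.61 at M3 (edgeR adjusted p = 0.115). The remaining 6 did not pass at these times.

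Lists of miRNA that mark cell types were counted beside the same contrasts, since plasma miRNA can shift with the tissue they come from. Liver miRNA were higher in irradiated C57Bl/6 mice, with 1, 2 and 4 of 4 passing at M3, M4 and M5 and median changes of 1.03, 1.37 and 2.29, against −0.05, −0.07 and −0.07 over all 483 miRNA. miR-122-5p, the most abundant miRNA of hepatocytes, changed by 1.47, 2.97 and 3.23 (edgeR adjusted p = 0.00156, 5.39e-12 and 3.64e-13), and miR-192-5p by 0.60, 1.13 and 1.35 (edgeR adjusted p = 0.0591, 6.55e-07 and 8.89e-09). The summed liver level spanned 12.52 to 15.85 (log2) in irradiated and 11.81 to 13.88 in sham mice at M3, 11.97 to 17.01 and 11.58 to 13.34 at M4, and 12.44 to 17.57 and 11.79 to 13.50 at M5. The part of liver or pancreas RNA in the miR-335-5p result was not tested.

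Markers of blood cells did not pass in these contrasts. Over all 483 miRNA, 8, 23 and 17 passed at M3, M4 and M5 and 53, 91 and 74 were at an unadjusted p under 0.05. Of 6 red blood cell miRNA 0 passed in edgeR at M3, M4 and M5, with 0, 1 and 0 at an unadjusted p under 0.05 (medians 0.06, 0.17 and 0.33), and miR-486a-5p, made in erythroid cells, was at 0.06, 0.13 and 0.27. The summed red blood cell level spanned 13.58 to 16.15 in irradiated and 13.84 to 15.83 in sham mice at M3, 14.59 to 16.35 and 14.50 to 16.22 at M4, and 14.47 to 17.15 and 14.14 to 16.09 at M5. Of 7 leukocyte miRNA 0 passed in edgeR, with 1, 0 and 2 at an unadjusted p under 0.05 (medians 0.02, −0.12 and −0.03), and miR-150-5p of mature lymphocytes was at 0.27, 0.16 and 0.35. Of 2 endothelial miRNA 0 passed in edgeR and 1, 0 and 0 were at an unadjusted p under 0.05, with miR-126a-3p at 0.08, −0.24 and 0.01. Of 7 epithelial miRNA 0 passed in edgeR and 2, 0 and 1 were at an unadjusted p under 0.05, with miR-200a-3p at −0.19, −0.22 and −0.26.

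Stromal, muscle and imprinted miRNA are counted against the same shares over all miRNA, 1.66%, 4.76% and 3.52% at M3, M4 and M5. At an unadjusted p under 0.05 in edgeR there were 53, 91 and 74 of all 483 miRNA. The lists had 0, 4 and 1 of 7 stromal, 0, 2 and 1 of 6 muscle, and 1, 6 and 10 of 41 imprinted miRNA. Of 7 stromal miRNA 0 passed upward and 0, 1 and 1 passed downward at M3, M4 and M5 (medians −0.28, −0.37 and −0.49), and miR-143-3p of smooth muscle was at −0.28, −0.37 and −0.02. Of 6 muscle miRNA 0, 1 and 0 passed, the 1 at M4 upward, against the list's median (medians 0.73, −0.64 and 0.07). The most abundant of them, miR-206-3p of skeletal muscle, was at 0.89, −1.04 and −0.58 and did not pass. Of 93 miRNA from other imprinted loci 41 were tested and 0, 1 and 0 passed (medians −0.08, −0.16 and −0.43). The 1 was miR-665-3p at M4 (2.59, edgeR adjusted p = 0.0396), which had a low mean of 0.52 log2 CPM over all libraries. The most abundant member of this list, miR-382-5p, was at 0.15, −0.26 and −0.57. A list of 8 miRNA named in irradiated lung was also counted, and 7 of them were tested. Of these, 0, 1 and 1 passed at M3, M4 and M5, both times miR-34a-5p, and miR-21a-5p was at −0.09, 0.22 and −0.03. At an unadjusted p under 0.05 in edgeR there were 2, 4 and 2 of these 7 (medians −0.09, −0.25 and −0.17). The paper names some members of this list as upregulated in irradiated lung and others as downregulated, so the list has no single direction. That last list came from the same study and is not independent evidence. It left out the more abundant of the strands described here, which the paper lists as upregulated in irradiated lung of both strains. The paper also reports that strand as overexpressed in plasma of irradiated mice by D2, using limma and voom with its own thresholds. At D2 in edgeR its change was 0.45 (adjusted p = 0.308) in C3H and 0.18 (adjusted p = 0.747) in C57Bl/6 mice. The list also left out miRNA that the paper names in lung of a single strain. miR-216a-5p was among these, and in plasma of C57Bl/6 mice it passed at M3, M4 and M5 in edgeR.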

How the data were processed

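Small RNA of mouse plasma was sequenced in 899 libraries. Per the labels, RNA came from 25 µL of plasma and libraries were made with the QIAseq miRNA Library Kit. The authors left out hemolysed plasma, trimmed and aligned the reads with the Small RNA application of BaseSpace, and deposited raw counts of reads per mature miRNA, with no normalization. The miRBase release and any use of molecular identifiers were not given in the sources used here, so statements on depth cover counting error only. Strain, treatment, sex, time, cohort and mouse came from the labels, and 0 samples were unmapped.

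Counts were tested in R 4.3.3 with edgeR 4.0.16 (TMM, filterByExpr, glmQLFit and glmQLFTest, 32 groups of strain, treatment and time, 867 residual degrees of freedom) and adjusted by Benjamini-Hochberg over the 483 miRNA tested (543 in the model with sex). A result passed at an adjusted p under 0.05. Arm ratios, later sampling and correlations used two-sided permutation tests, exact where a group had fewer than 10 samples and otherwise with 100000 resamples (Python 3.11.15, scipy 1.17.1). The scripts were tested on simulated data.

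Both members, the lists of cell type, imprinted and lung miRNA, and the tests were chosen with earlier results of these data known. The miRNA named were both members, the 5 most like mmu-miR-335-5p by each measure, the most abundant member of each list, and up to 4 imprinted or lung miRNA that passed. miR-122-5p and the other miRNA singled out were chosen after their values were seen. Mice are numbered in the labels, so the pairing was checked: deviations from group means correlated at a mean r of 0.082 over 1962 pairs of libraries of the same mouse (99 abundant miRNA) and at −0.00017 between different mice. limma 3.58.1, DESeq2 1.42.0, other scalings and filters, covariates, subsets and a mouse block were alternatives. Fits by cohort for strain, sex and time, fits without shallow or unusually scaled libraries, and fits with depth covariates were chosen after seeing the data. Tissue samples (lung, heart) were not used here.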

Additional observations from a re-analysis of the deposited data

How the results depend on the processing

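The log2 changes of mmu-miR-335-5p in C57Bl/6 mice passed at M4 and M5 in all 19 alternatives, from 1.00 to 1.58 and from 1.14 to 1.67. At M3 they ranged from 0.83 to 1.47 and passed in 18, the exception being males alone (0.83, adjusted p = 0.336). At M6 the change passed in 11 alternatives, with 1.13 under DESeq2 size factors in edgeR, 1.10 with no filter, 1.15 for miRNA of at least 10 CPM, 1.07 with cohort as a covariate, 1.06 with the TMM factor and library total as covariates, 1.10 without libraries under 500000 reads, 1.23 without those with a TMM factor under 0.6, 1.11 in the first cohort alone and 1.14 in DESeq2. With each mouse as a replicate block it was 1.17 in limma-voom, and 1.69 as a change from the mouse's own PT level with a fixed replicate block. That last block also raised the number of times passed in C57Bl/6 mice from 3 to 5, adding M2 (0.97, adjusted p = 0.0383) and M6, and both C3H counts and the 3p count in C57Bl/6 mice were 0 in all alternatives. Values from own PT include the lower PT level of irradiated first-cohort C57Bl/6 mice (mean 5.33 log2 CPM, against 5.88 in sham mice). The consensus correlation within mice was 0.0434.

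Before irradiation, the strain difference of the 3p strand was −0.025 in the second cohort alone (adjusted p = 0.920). The sex difference of the 5p strand in C57Bl/6 mice was 0.43 by library totals, 0.49 in limma-voom and 0.30 in the first cohort, none passing. That of the 3p strand in C3H mice passed at 0.57 in limma-voom with or without the mouse as a replicate block and at 1.00 in the second cohort. That of the 3p strand in C57Bl/6 mice changed sign to −0.095 by library totals, −0.043 and −0.048 in limma-voom without and with the replicate block and −0.065 in the second cohort, and that of the 5p strand in C3H mice to 0.20 in the first cohort and 0.031 by library totals. With quantile normalization, the persistence of the 3p strand in C57Bl/6 mice passed (r = 0.48), that of the 5p strand turned to −0.094, and the 5p difference by later sampling at D2 to −0.12. The arm ratio in C3H mice turned to −0.15 at M1 and −0.31 at PT with at least 20 reads of both arms, and to −0.0013 at M1 with 1 added. At M4 in C57Bl/6 mice that read minimum left fewer than 2 sham libraries and gave no value.

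Some differences between irradiated and sham mice that did not pass, at PT and after WTLI, turned in sign under some alternatives, and none of the turned values passed. All but the 3p change in C57Bl/6 mice at D5 (−0.38, SE 0.32) were under 1 SE. In C57Bl/6 mice at M1, the 3p change turned to 0.035 in DESeq2 and with its size factors, 0.19 by quantile normalization, 0.072 from own PT with the fixed replicate block, 0.054 with cohort as a covariate, 0.032 by library totals, 0.26 in limma-voom with and without the replicate block, 0.036 in males, 0.027 from 10 CPM, 0.0078 with the groups compared alone, 0.79 in the second cohort, 0.059 without shallow libraries, 0.0017 without low TMM factors and 0.037 without mice lacking PT. At M2 it turned to 0.13, 0.32, 0.11 (0.16 with the replicate block), 0.052 and 0.029 by quantile normalization, own PT, limma-voom, in males and without mice lacking PT. At D5 it was 0.21 in the second cohort, at PT −0.036 in the first, and −0.996 at M5 and −0.29 at M6 in females. In C3H mice the 3p change was −0.0070 at D2 by quantile normalization and −0.093 by library totals, −0.11 at M1 in females and −0.039 in the second cohort, 0.46, 0.10 and 0.020 at M2 by own PT, library totals and the groups alone, and 0.26 and 0.21 at M3 by own PT and in males. The 5p change in C3H mice at D5 was −0.0038 in DESeq2, −0.0037 with its size factors, −0.065 with cohort, −0.43 in the first cohort, −0.15 by library totals, −0.053 in males, −0.029 with no filter and with the groups alone, and −0.013 without shallow libraries. At PT it was 0.0065 in DESeq2, 0.0068 with its size factors, 0.0074 from 10 CPM, 0.019 without low TMM factors, 0.062 in females and 0.26 in the second cohort. In males it was −0.086 at M1 and −0.015 at M3, and −0.069 in the second cohort at M1. In C57Bl/6 mice the 5p change at D5 was 0.025 in DESeq2 and with its size factors, 0.059 from own PT, 0.054 in females and 0.28 in the second cohort, at PT 0.037 in females and 0.098 in the second cohort, and at D2 −0.018 in males. The cause of these changes was not tested. Of 925 alternative values 832 kept their direction and side of the threshold.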
